A study of Mus musculus with 6 samples.

Results

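The genes described here encode 6 G protein-coupled receptors for fatty acids and related metabolites in mouse pancreatic islets: Ffar1, Ffar2, Ffar3, O3far1 (an older symbol of Ffar4), Gpr119 and Niacr1 (an older symbol of Hcar2). They were taken by name from a deposited table of 22923 genes, and each of the 6 matched 1 entry. Islet RNA was sequenced from 3 WT libraries and from 3 libraries labelled FFA2 global KO, which are called labelled KO in what follows. Per the methods, both groups came from crosses of Ffar2+/- mice on a C57BL/6J background, and the islets of 2 mice were pooled for each RNA extraction, after handpicking and an overnight rest in culture. The methods name normal and high fat chow without giving the diet of the sequenced mice, and no treatment of the islets is named. The labels give an age of 10 to 12 weeks for both groups, and the supplement of the study gives an older age and male sex. The knockout is labelled as global, not as that of 1 cell type. The labels and methods name neither the bases of Ffar2 that were removed nor the mice behind each library, and replicates may share a pool. The p-values below therefore cover the spread among these 6 libraries only.

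Free fatty acid receptors let endocrine cells read nutrients outside the cell. FFA1, the product of Ffar1, binds long chain fatty acids, couples mainly to Gq and strengthens glucose-stimulated insulin secretion in beta cells. FFA2 and FFA3 bind short chain fatty acids such as acetate and propionate; FFA2 couples to Gq and to Gi, and FFA3 to Gi. FFA4 binds long chain fatty acids, omega-3 fatty acids included, and in mouse islets is best known from somatostatin-secreting delta cells. GPR119 binds lipid amides and monoacylglycerols, couples to Gs and raises cAMP. HCAR2 binds beta-hydroxybutyrate and niacin, couples to Gi and is best known from adipocytes and myeloid cells.

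The counts used per library were 19352339 to 21283444 in WT and 17067263 to 22792367 in labelled KO. The preparations held islet RNA, with Sst, the somatostatin gene, at 2752 to 3628 CPM in WT and 2503 to 4103 CPM in labelled KO (CPM, counts relative to a TMM-scaled library size). Ins1, Ins2, Iapp and Gcg could not be used because the authors' caller skipped them, but 8 other beta cell genes, G6pc2 and Slc30a8 most abundant among them, summed to 5319 to 5714 CPM in WT and 4083 to 5512 CPM in labelled KO. Labelled KO replicate 3 stood apart in the marker genes of acinar cells, the exocrine cells around islets. The 11 such genes summed to 201224 CPM there, to 9367 and 65374 CPM in labelled KO replicates 1 and 2, and to 8276 to 34038 CPM in WT. In bulk RNA, fewer cells of a type and less RNA per cell cannot be told apart.

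Ffar1, Ffar2 and Ffar3 are neighbours on chromosome 7, all read from the minus strand of mm10. The deposited table places Ffar2 at chr7:30818357-30823775, Ffar3 at chr7:30854330-30856178 and Ffar1 at chr7:30860568-30861470. The gap between Ffar2 and Ffar3 is 30.55 kb and that between Ffar3 and Ffar1 is 4389 bp, or 1211 bp by the GENCODE M21 annotation, in which Ffar1 is longer. The 3 genes lie within 43.11 kb. The other members are elsewhere, O3far1 at chr19:38097079-38114263 on the plus strand, Gpr119 at chrX:48667979-48674478 and Niacr1 at chr5:123863570-123865516, both on the minus strand. The coding sequence of O3far1 is spread over 3 exons, and that of each other member lies in 1 exon. No other GENCODE gene overlapped any of the 6.

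Because Ffar1, Ffar2 and Ffar3 turned out to be the members whose groups did not overlap, the stretches before their transcription starts are shown here from RefSeq promoters of GRCm38.p6, the assembly also named mm10. Capitals mark a cAMP response element (TGACGTCA) or a MafA motif core (TGCTGA, or TCAGCA on the other strand). The Ffar1 stretch, chr7:30861565-30861720, ends where the first GENCODE transcript begins.
Ffar1: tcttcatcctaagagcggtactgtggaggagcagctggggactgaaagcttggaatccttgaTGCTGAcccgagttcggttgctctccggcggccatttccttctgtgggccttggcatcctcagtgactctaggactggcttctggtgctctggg
Ffar2, chr7:30823776-30824025: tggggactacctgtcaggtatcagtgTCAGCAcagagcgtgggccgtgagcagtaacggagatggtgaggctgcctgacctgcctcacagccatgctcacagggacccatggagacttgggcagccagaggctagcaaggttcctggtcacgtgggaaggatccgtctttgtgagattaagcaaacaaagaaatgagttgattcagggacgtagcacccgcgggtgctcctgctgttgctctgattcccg
Ffar3, chr7:30856179-30856428: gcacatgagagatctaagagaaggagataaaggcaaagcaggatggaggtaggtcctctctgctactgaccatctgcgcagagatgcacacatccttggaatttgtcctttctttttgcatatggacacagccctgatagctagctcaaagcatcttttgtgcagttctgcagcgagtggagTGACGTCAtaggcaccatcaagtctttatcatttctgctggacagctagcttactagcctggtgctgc
All stretches run 5′ to 3′ on the minus strand. Of the 5 members with a RefSeq promoter, Ffar3 alone had a cAMP response element in the 250 bases before a start, at position -68, a motif present in 1.55% of 32851 such windows. A MafA motif core stood at -188 for Ffar1 and at -224 for the most upstream of 4 starts of Ffar2, against 16.1% of windows. Positions are counted from the RefSeq start. For Ffar1 that start is the first coding base, chr7:30861470, inside the GENCODE transcript. Its -188 is therefore not counted from the end of the stretch shown. Windows of Ffar1, Ffar2 and Ffar3 held 3, 1 and 3 E-boxes (CANNTG, present in 66.2% of windows), none overlapping the capitals. No window of these 5 genes held the FoxA motif TGTTTAC (3.17% of windows) or the homeobox motif TAATTA (4.84%), and O3far1 and Gpr119 held none of the 5 motifs. Both strands were searched, and a match describes letters in a window only.

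Ffar2, the targeted gene, was counted in every library and was higher, not lower, in the libraries that carry the knockout label. Its counts were 774, 559 and 550 in WT replicates 1 to 3 and 1750, 750 and 673 in labelled KO replicates 1 to 3. Scaled, this was 34.1, 27.0 and 26.5 CPM in WT and 71.8, 43.9 and 46.1 CPM in labelled KO. The lowest labelled KO library lay above the highest WT library, and labelled KO replicate 1 was the highest of all. The mean was 29.2 ± 4.23 CPM in WT and 53.9 ± 15.5 CPM in labelled KO (SD, n = 3 each), a 1.85-fold difference with a 95% interval of 1.31 to 2.61. On the log2 scale the difference was 0.89 (SE 0.21, adjusted p = 0.852 after Benjamini-Hochberg adjustment over all genes tested, edgeR's quasi-likelihood test), and by its unadjusted p Ffar2 ranked 26 of 14082 genes tested. Without labelled KO replicate 1 it was 0.62, and without labelled KO replicate 3 it was 0.99. The count is 1 value for the gene and does not show whether the coding exon was read. The label of a knockout could therefore not be checked from these counts, and each direction given here is that of the libraries as labelled.

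Macrophages and neutrophils are textbook sites of Ffar2 expression, so their markers are given here. The 11 macrophage and other myeloid genes summed to 88.0, 138 and 97.7 CPM in WT and to 84.0, 82.5 and 82.4 CPM in labelled KO. All 11 had a log2 fold change below 0, from -0.98 to -0.014 with a median of -0.52, beside 6580 of all 14082 genes tested. The sums of the groups did not overlap, beside 11.2% of single genes tested. In edgeR, 0 of all genes tested had an adjusted p under 0.05, these 11 included. The 6 neutrophil genes used summed to 0.66, 2.71 and 0.96 CPM in WT and to 0.57, 1.29 and 1.37 CPM in labelled KO. Those sums overlapped, and only 1 of the 6 genes passed the filter on low counts. The part of these cells in the Ffar2 values was not tested.

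Ffar3, which encodes the other short chain fatty acid receptor, had the lowest unadjusted p of the 6 members. Its counts were 247, 181 and 188 in WT replicates 1 to 3 and 100, 83 and 63 in labelled KO replicates 1 to 3. In CPM the values were 10.9, 8.75 and 9.05 in WT and 4.10, 4.86 and 4.31 in labelled KO. Every labelled KO library was thus below every WT library, with little spread inside either group. The mean was 9.56 ± 1.14 CPM in WT and 4.42 ± 0.390 CPM in labelled KO (SD, n = 3 each), 2.16-fold higher in WT. The log2 fold change was -1.11 (SE 0.17, 95% interval -1.51 to -0.71, adjusted p = 0.852 in edgeR's quasi-likelihood test). By its unadjusted p, Ffar3 ranked 3 among all genes tested. The same difference passed the threshold of 0.05 in DESeq2, with an adjusted p of 0.00279, and not in limma-voom, with an adjusted p of 0.889. Without labelled KO replicate 3 the log2 fold change was -1.10. Over 17 alternative settings it stayed between -1.27 and -0.90, and the adjusted p ran from 0.00279 to 0.999.

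Ffar1, the long chain fatty acid receptor of beta cells, lay lower in labelled KO as well, with a wider spread. Its counts were 613, 319 and 348 in WT and 244, 224 and 183 in labelled KO, replicates 1 to 3 in order. The corresponding CPM were 27.0, 15.4 and 16.7 in WT and 10.0, 13.1 and 12.5 in labelled KO. The groups did not overlap, but WT replicate 1 was well above the other WT libraries, and WT replicate 2 lay only a little above labelled KO replicate 2. Means were 19.7 ± 6.32 CPM in WT and 11.9 ± 1.65 CPM in labelled KO (SD, n = 3 each). The log2 fold change was -0.73 (SE 0.24, 95% interval -1.29 to -0.17, adjusted p = 0.852 in edgeR's quasi-likelihood test), and Ffar1 ranked 149 by its unadjusted p. Leaving out WT replicate 1 brought it to -0.44, and leaving out labelled KO replicate 3 to -0.78. DESeq2 gave an adjusted p of 0.828 and limma-voom 0.889.

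**Figure D1:**
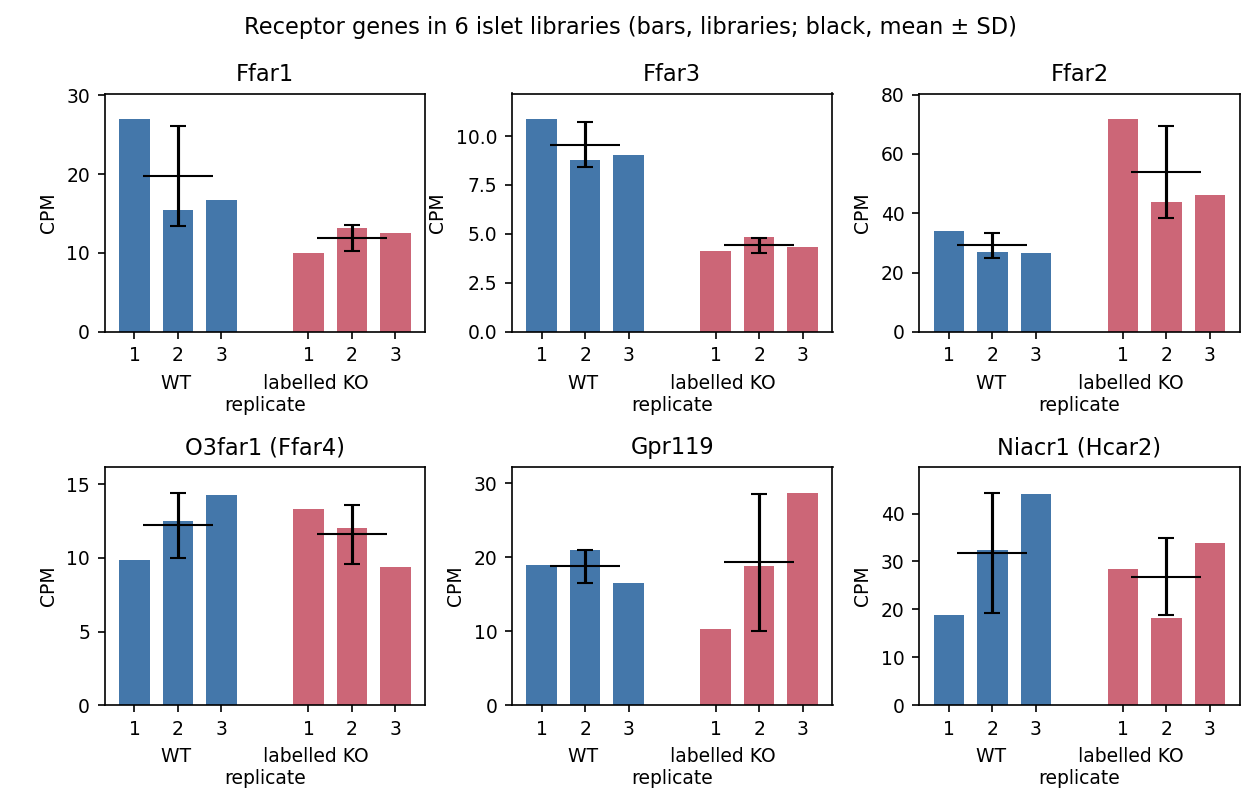
CPM (counts relative to a TMM-scaled library size) of the 6 receptor genes, with 1 bar for each library and black marks for the mean ± SD of each group of 3. Ffar1 and Ffar3 lie lower and Ffar2 higher in every labelled KO library than in any WT library, while the groups of O3far1, Gpr119 and Niacr1 overlap.

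O3far1, which encodes FFA4, did not separate the genotypes. It was counted 224, 258 and 297 times in WT and 325, 206 and 137 times in labelled KO, which is 9.85, 12.5 and 14.3 CPM and 13.3, 12.1 and 9.38 CPM. The groups covered almost the same range, with means of 12.2 ± 2.23 and 11.6 ± 2.02 CPM (SD, n = 3 each). On the log2 scale the fold change was -0.07 (SE 0.20, 95% interval -0.53 to 0.39, adjusted p = 0.956 in edgeR's quasi-likelihood test). The 4 delta cell genes, Sst and Rbp4 most abundant among them, summed to 2893, 3744 and 3791 CPM in WT and to 2629, 3312 and 4282 CPM in labelled KO. In WT the order of the libraries was the same for O3far1 as for these sums, and in labelled KO it was the opposite. The fold change of O3far1 turned to 0.055 on the log2 scale without labelled KO replicate 3.

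Gpr119, the Gs-coupled receptor for lipid amides, had like means and unlike spreads. Counts were 431, 434 and 343 in WT and 252, 322 and 420 in labelled KO. The CPM of 19.0, 21.0 and 16.5 in WT lay between the lowest and the highest of the labelled KO libraries, which were at 10.3, 18.8 and 28.8. Means were 18.8 ± 2.25 and 19.3 ± 9.22 CPM (SD, n = 3 each). In edgeR's quasi-likelihood test the log2 fold change was 0.03, with an SE of 0.33, a 95% interval of -0.76 to 0.82 and an adjusted p of 0.991. Within each group, Gpr119 followed the order of the acinar sums given above, with labelled KO replicate 1 lowest and replicate 3 highest among labelled KO, and WT replicate 3 lowest and replicate 2 highest in WT. Without labelled KO replicate 3 its log2 fold change was -0.38, and without labelled KO replicate 1 it was 0.33. The part of acinar RNA in these values was not tested.

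Niacr1, the receptor for beta-hydroxybutyrate and niacin, varied most among the WT libraries. Its counts were 429, 671 and 915 in WT and 693, 312 and 495 in labelled KO. As CPM they were 18.9, 32.5 and 44.0 in WT and 28.4, 18.3 and 33.9 in labelled KO. Both groups reached down to about the same level, and WT replicate 3 was the highest library. Means were 31.8 ± 12.6 and 26.9 ± 7.94 CPM (SD, n = 3 each), and the log2 fold change was -0.24 (SE 0.33, 95% interval -1.03 to 0.55, adjusted p = 0.907 in edgeR's quasi-likelihood test). The myeloid sums were highest in WT replicate 2, where Niacr1 was not, and varied little among the labelled KO libraries. Of 5 adipocyte markers, Adipoq, Plin1 and Lep were at 0 counts in all 6 libraries and Cfd had 1 count in all. Fabp4, a fatty acid-binding protein gene that endothelial cells and macrophages also express, was at 6.55, 12.6 and 8.28 CPM in WT and 19.4, 8.60 and 16.0 CPM in labelled KO. The part of these cells in the Niacr1 values was not tested. Without labelled KO replicate 3 the log2 fold change of Niacr1 was -0.44, and without WT replicate 3 it was 0.063.

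Across the 6 members, 0 had an adjusted p under 0.05 in edgeR, as did 0 of all 14082 genes tested (0%). At an unadjusted p under 0.05, 1 member was higher and 2 were lower in labelled KO, against 2.58% and 2.12% of all genes tested, or 4.69% in either direction. The groups did not overlap for 1 member in the higher direction and 2 in the lower, beside 5.36% and 5.84% of all genes, or 11.2% in either direction. DESeq2 called 1 member, Ffar3, among the 0.0426% of genes that it called lower (0.0568% in either direction, 0.0142% higher), and limma-voom called 0 members and 0 genes. Of all genes tested, 661 had an unadjusted p under 0.05 in edgeR, 692 (4.92%) in DESeq2 and 629 (4.47%) in limma-voom, and Ffar1, Ffar2 and Ffar3 were among them in each of these tools. The split of those in edgeR, 363 higher and 298 lower, depended on scaling: it was 57 and 590 when libraries were scaled by total count, and 1141 and 33 when scaled to 8 beta cell genes. These scalings moved the median log2 fold change of all genes from 0.016 to -0.14 and to 0.24. Ffar1 and Ffar3 stayed below 0 and Ffar2 above 0 under both, but with beta cell scaling the unadjusted p of Ffar1 was no longer under 0.05.

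The ratio of 2 genes within a library does not depend on the scaling. Ffar2 was higher, and Ffar1 and Ffar3 lower, in every labelled KO library than in any WT library. The ratios of Ffar2 to Ffar1 and to Ffar3 therefore could not overlap between the groups, and they add no separate result. For each count of Ffar1 there were 1.26, 1.75 and 1.58 counts of Ffar2 in WT and 7.17, 3.35 and 3.68 in labelled KO, and the groups did not overlap. Ffar2 stood to Ffar3 at 3.13, 3.09 and 2.93 in WT, within a narrow range, and at 17.5, 9.04 and 10.7 in labelled KO. Between the adjacent genes Ffar3 and Ffar1 the ratio was 0.403, 0.567 and 0.540 in WT and 0.410, 0.371 and 0.344 in labelled KO. Those ranges overlapped slightly, through WT replicate 1, in which Ffar1 was highest. In mouse beta cells, a transcript that spans both Ffar1 and Ffar3 has been described, and counts per gene cannot tell reads of such a transcript from those of separate ones.

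**Figure D2:**
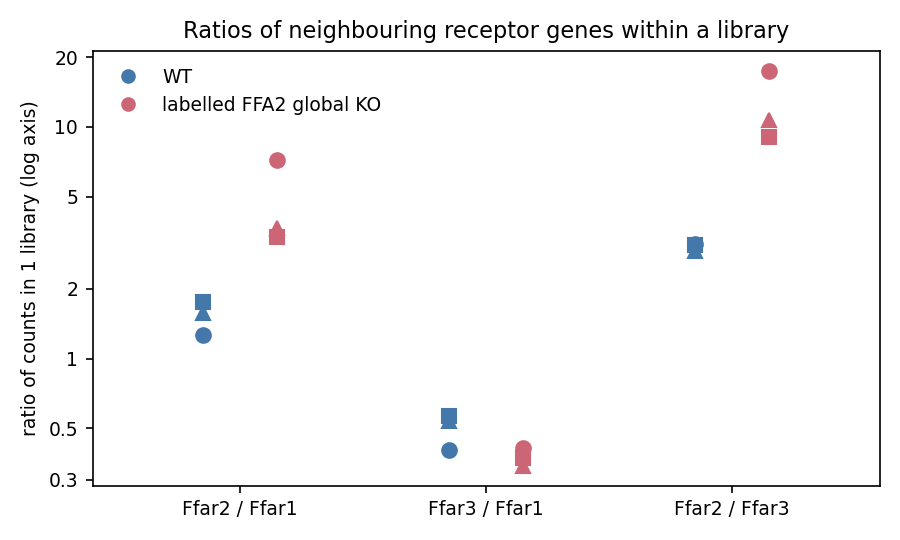
Ratio of the counts of neighbouring receptor genes in the same library (log axis), with circles, squares and triangles for replicates 1 to 3. The ratios of Ffar2 to Ffar1 and of Ffar2 to Ffar3 do not overlap between WT and labelled KO, whereas those of Ffar3 to Ffar1 do. The lack of overlap for Ffar2 follows from the values of each gene alone.

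Levels of different genes were set side by side as RPKM, which are counts divided by exon length and library size, with the exons inside the deposited locus as length. In WT the order from high to low was Ffar1 (21.8 ± 7.0 RPKM), Niacr1 (16.5 ± 6.52), Ffar2 (10.5 ± 1.52), O3far1 (8.76 ± 1.60), Gpr119 (8.29 ± 0.990) and Ffar3 (5.17 ± 0.619; SD, n = 3 each). Only Gpr119 and Ffar3 were neighbours in this order whose RPKM did not overlap between libraries. In labelled KO the order was Ffar2 (19.4 ± 5.58 RPKM), Niacr1 (13.9 ± 4.11), Ffar1 (13.2 ± 1.83), Gpr119 (8.51 ± 4.06), O3far1 (8.32 ± 1.45) and Ffar3 (2.39 ± 0.211). There, O3far1 and Ffar3 were the only neighbours that did not overlap. By these means and this length, Ffar3 had the lowest level in both groups, Ffar1 the highest in WT and Ffar2 the highest in labelled KO. The first place did not hold in every library: Niacr1 was above Ffar1 in WT replicate 3, at 22.8 against 18.5 RPKM, and above Ffar2 in labelled KO replicate 3, at 17.6 against 16.6 RPKM. Without WT replicate 1, the WT mean was 19.8 RPKM for Niacr1 and 17.8 RPKM for Ffar1.

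The authors' own RPKM, pooled per genotype and without a spread, gave the same order in WT, with Ffar1 at 22.6, Niacr1 at 13.5, Ffar2 at 10.9, O3far1 at 8.05, Gpr119 at 7.0 and Ffar3 at 5.09 RPKM. In labelled KO their pooled RPKM were 23.5 for Ffar2, 13.7 for Ffar1, 11.5 for Niacr1, 7.91 for O3far1, 7.12 for Gpr119 and 2.40 for Ffar3. The place of Ffar1 rests on its length. The deposited locus holds its coding exon, 903 bp, while GENCODE gives it 4175 bp of exon, and with that length its level would be 4.72 RPKM in WT, below Ffar3 and with Niacr1 first, and 2.85 RPKM in labelled KO, next to Ffar3. The authors' RPKM of Ffar1 in WT corresponds to a length of 936 bp, near that of the deposited locus. If reads were counted over that locus only, the GENCODE length would be too long for these counts. How reads were counted was not described.

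**Figure D3:**
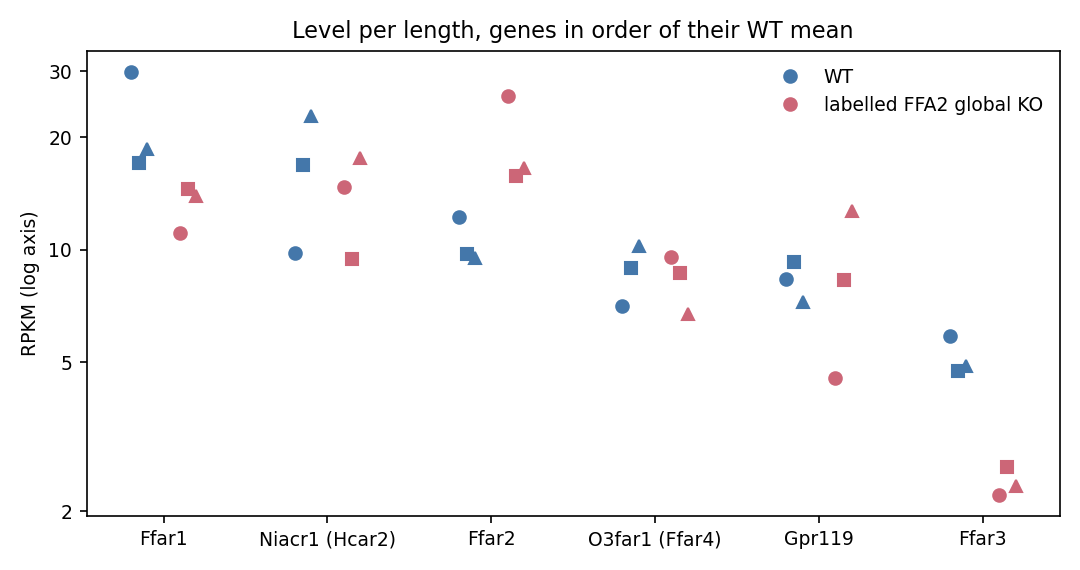
RPKM (log axis) of the 6 receptor genes in each library, ordered by the WT mean, with circles, squares and triangles for replicates 1 to 3 of each group. With the deposited locus as length, Ffar3 has the lowest mean in both groups, and Ffar2 stands above its WT libraries in all 3 labelled KO libraries.

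Profiles over the 6 libraries were compared as the root mean square difference of log2 CPM after each gene was centred on its own mean. Among the members, Ffar1 and Ffar3 were the closest, at 0.26, and Ffar2 and Ffar3 were the farthest apart, at 1.01. Among genes that varied enough to be compared (a minimum range set by that of the member), those most like Ffar1 were Mxd3 (0.15), Gm15545 (0.18) and Gja4 (0.19), and those most like Ffar3 were Cd1d1 (0.11), Efcab10 (0.22) and again Gm15545 (0.22). Cd1d1, which encodes an antigen-presenting protein for lipids, was at 1.14, 1.21 and 1.06 CPM in WT and 0.451, 0.527 and 0.479 CPM in labelled KO. Its groups were about as far apart and as even as those of Ffar3, but at this low level they rest on few counts. Nearest to Ffar2 were Dcbld1 (0.11), Enpp1 (0.12) and Tmem200a (0.13). Dcbld1, which encodes a membrane protein, had 10.5, 8.75 and 8.42 CPM in WT and 20.8, 11.4 and 13.9 CPM in labelled KO.

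O3far1 and Gpr119 had nearer matches than the other members. O3far1 had a range of only 0.60 on the log2 scale and 11761 eligible genes, both of which make near matches easier to find. The other members had ranges of 1.265 to 1.468 and 4892 to 5950 eligible genes. O3far1 was most like Slc12a7 (0.048), 4930413G21Rik (0.053) and Itfg3 (0.055). Slc12a7, a potassium-chloride cotransporter gene, ran at 121, 143 and 161 CPM in WT and 151, 132 and 109 CPM in labelled KO. Gpr119 was most like Pld2 (0.045), Cdo1 (0.075) and Klhl5 (0.082). Pld2 encodes a phospholipase D and was at 2.11, 2.42 and 1.92 CPM in WT and 1.23, 2.28 and 3.42 CPM in labelled KO. Niacr1 was most like Hlf (0.11), Trib1 (0.11) and Ikzf4 (0.13). Trib1, which encodes a pseudokinase, had 207, 377 and 413 CPM in WT and 315, 192 and 323 CPM in labelled KO. Such matches were picked from 4892 to 11761 eligible genes over only 6 libraries, and the values are a description.

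The genes that act with these receptors were read from 3 lists. Of 15 other lipid and metabolite receptors, 7 passed the filter on low counts. Of these, 0 had an adjusted or an unadjusted p under 0.05 in edgeR, beside 0% and 4.69% of all genes tested. Their median log2 fold change was -0.09, beside 0.016 for all genes tested. For 0 of the 7 did the groups not overlap, beside 11.2% of all genes tested. The most abundant was Casr, the calcium-sensing receptor, at 84.8 ± 8.30 CPM in WT and 98.1 ± 8.87 CPM in labelled KO (SD, n = 3 each), a log2 fold change of 0.21. Lowest in p after Casr were the olfactory receptor entry Olfr560,Olfr78, in which Olfr78 is another receptor for short chain fatty acids, with a log2 fold change of -0.85, and Gpr132, a receptor for oxidized fatty acids and lysolipids, with -0.98. Both were under 4 CPM in every library. Gprc6a, an amino acid-sensing receptor, had -0.16. Oxgr1, the 2-oxoglutarate receptor, had 0 counts in all 6 libraries, and Gpr84, Gpr35, Gpr55, Gpr18, Gpbar1, Sucnr1 and Gpr31c were below the filter.

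G proteins, their regulators and effectors made up the second list, of which 30 of 31 were tested. None passed an adjusted p of 0.05 in edgeR, 1 was higher and 0 were lower at an unadjusted p under 0.05, and the median log2 fold change was 0.01. The groups did not overlap for 3 genes in the higher direction and 2 in the lower, beside 5.36% and 5.84% of all genes tested. Rgs4, which shortens Gq and Gi signals, was at 209, 231 and 196 CPM in WT and at 416, 210 and 499 CPM in labelled KO. Its log2 fold change was 0.82 (SE 0.29, adjusted p = 0.852 in edgeR), but labelled KO replicate 2 lay inside the WT range. Gnaz, which encodes Gz, was at 54.2, 51.8 and 57.3 CPM in WT and at 85.0, 60.2 and 58.8 CPM in labelled KO, so that the groups did not overlap. Rgs16, another regulator of G protein signals, and Plcb4, a phospholipase C gene downstream of Gq, also lay higher without overlap, at 102 ± 14.0 against 87.2 ± 1.06 CPM and at 33.0 ± 0.913 against 29.0 ± 3.15 CPM (labelled KO against WT, SD, n = 3 each). Adcy8, an adenylyl cyclase gene, and Arrb2, which encodes beta-arrestin 2, lay lower without overlap, at 1.41 ± 0.365 against 2.24 ± 0.360 CPM and at 25.0 ± 2.00 against 28.4 ± 1.00 CPM. The Gq gene Gnaq was at 140 ± 11.5 CPM in labelled KO and 145 ± 5.93 CPM in WT, and the Gs gene Gnas at 1751 ± 273 and 1885 ± 140 CPM.

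The third list held 15 genes that release, make, carry, use or break down the ligands. Of these, 12 were tested and 0 passed an adjusted p of 0.05 in edgeR. At an unadjusted p under 0.05, 1 was lower and 0 were higher, beside 2.12% and 2.58% of all genes tested. The groups did not overlap for 1 gene in the lower direction and 0 in the higher, beside 5.84% and 5.36% of all genes. The median log2 fold change was -0.09. Pnpla2, which encodes the triglyceride lipase ATGL that frees long chain fatty acids, was at 54.6, 62.1 and 73.9 CPM in WT and 54.5, 50.2 and 49.4 CPM in labelled KO. The groups touched without overlapping, and the log2 fold change was -0.31 (SE 0.13, adjusted p = 0.852 in edgeR). Mgll, the monoacylglycerol lipase gene, had a log2 fold change of 0.45, with labelled KO replicate 3 at 43.1 CPM and the other labelled KO libraries at 23.1 and 24.3 CPM. Lipa, the lysosomal acid lipase gene, and Bdh1, an enzyme of beta-hydroxybutyrate formation and use, had -0.25 each.

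**Figure D4:**
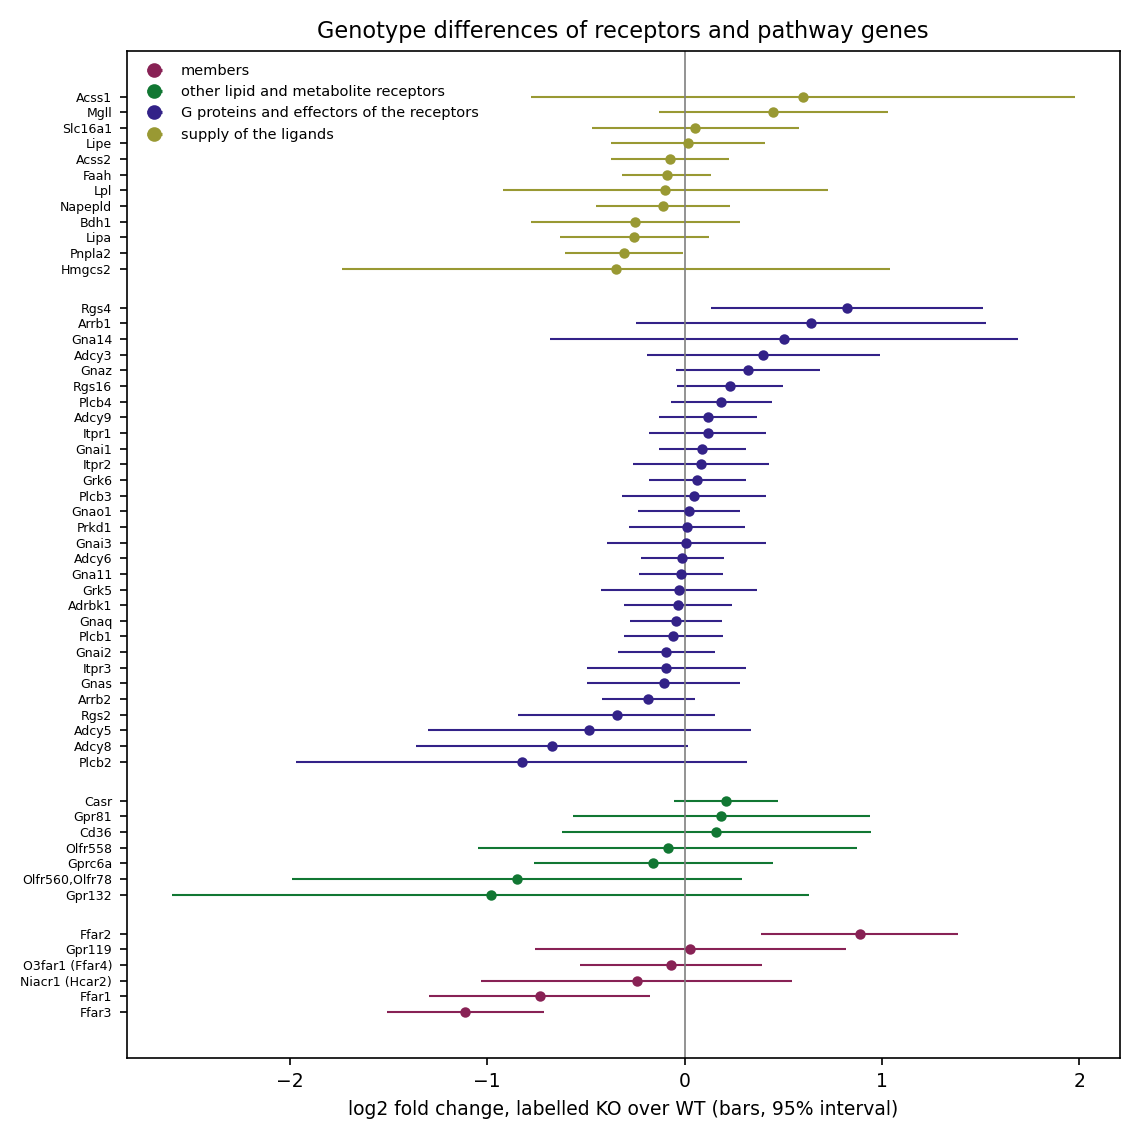
Log2 fold change (labelled KO over WT) with its 95% interval from edgeR for the 6 receptor genes and the tested genes of 3 related lists. The intervals of Ffar2, Ffar1 and Ffar3 exclude 0, as do those of Rgs4 and Pnpla2, and 0 of the genes shown passed an adjusted p of 0.05.

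Within 100 kb of the Ffar2 locus the deposited table places 12 genes, of which 9 were tested, Ffar1, Ffar2 and Ffar3 included. Ffar2 was the only one of the 9 that was higher in labelled KO at an unadjusted p under 0.05, and 6 were lower: Atp4a, Tmem147, Sbsn, Dmkn, Ffar3 and Ffar1. Those 7 were also the ones whose groups did not overlap. Over all genes tested, 4.69% had such a p and 11.2% had groups that did not overlap. The members thus stood among other genes of the same stretch with lower values in labelled KO, such as Tmem147, a membrane protein gene, at 65.7 ± 7.90 CPM in WT and 40.3 ± 7.03 CPM in labelled KO (SD, n = 3 each; log2 fold change -0.71). None of the 9 passed an adjusted p of 0.05 in edgeR, Atp4a being nearest at 0.0741.

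**Figure D5:**
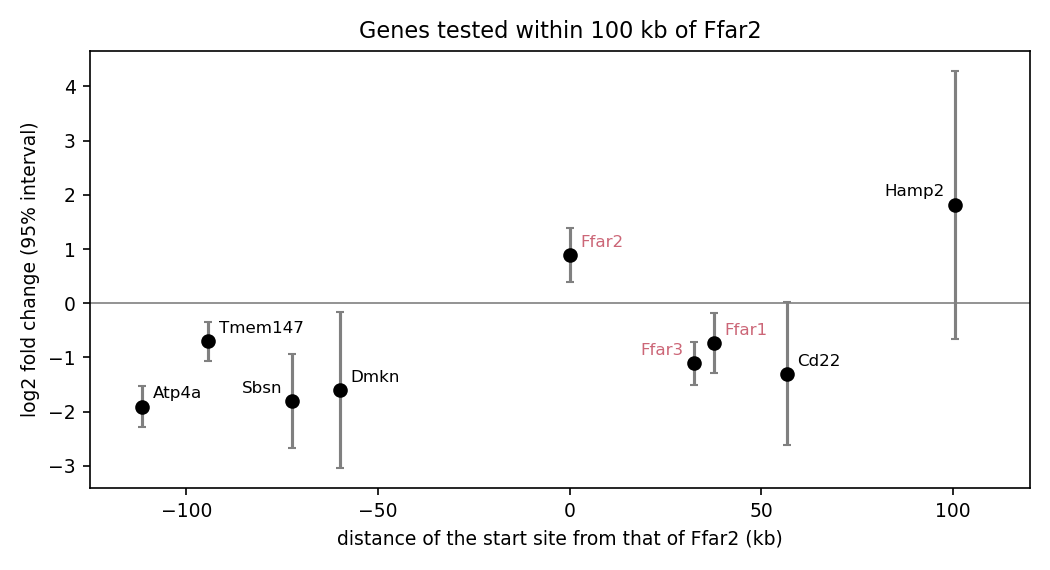
Log2 fold change (labelled KO over WT) with its 95% interval from edgeR for the 9 tested genes whose loci lie within 100 kb of Ffar2, placed by the distance of their start sites from that of Ffar2 along the chromosome. Ffar2 lies above 0, and Ffar3 and Ffar1 lie below 0 together with Atp4a, Tmem147, Sbsn and Dmkn. Hamp2 (1.82) also lies above 0 and Cd22 (-1.31) below, both with intervals that include 0. Sbsn and Dmkn were low, with WT means of 1.24 and 0.751 CPM.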

How the data were processed

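RNA of isolated islets from 3 WT and 3 labelled KO libraries was analysed, with groups taken from the sample labels. Per the methods and the submitters' processing notes, the authors aligned reads with TopHat2 2.0.8b and ran Cuffdiff 2.1.1 on mm10. The counting of reads and any use of strand were not given in the sources used here. Per gene and library, the authors deposited estimated counts without normalization. They also deposited RPKM values pooled per genotype, and columns of their own comparison (fold change, statistic, p-value, adjusted p-value and call), which were not used. Left out were 158 names with several values (0.103% to 0.169% of counts) and 15 genes skipped by the caller for too much data (1.08% to 8.21%). Non-whole counts, found in 478 genes, were rounded.

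Counts were filtered with filterByExpr (minimum count 10, minimum total 15), which kept 14082 of 22750 genes, scaled by TMM and tested for genotype with edgeR 4.0.16 (quasi-likelihood test, 2-sided, run in R 4.3.3) under Benjamini-Hochberg adjustment over all genes tested and a threshold of 0.05. The biological coefficient of variation was 21.5%. log2 CPM used a prior count of 2. RPKM here used GENCODE M21 exons inside the deposited locus as length, and the whole GENCODE exons were tried after seeing the data. No pair of libraries of a group was alike within sampling noise (lowest chi-square per gene 27.6). The scripts were tested on simulated data.

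Members and lists were chosen with earlier results of these data known. Named are the 6 members, the 3 genes most like each, up to 4 genes of lowest unadjusted p per related list, and, where a marker list is described by gene, its 2 most abundant genes and any marker at 0. The other genes of the related lists, and those near Ffar2, were named after their values were seen. Alternatives were RLE, upper-quartile, total-count and beta cell scaling, no filter, a minimum of 10 counts per library, limma-voom (limma 3.58.1), DESeq2 1.42.0, a robust fit, a replicate block, leaving out each library, keeping skipped genes, and the longest transcript as length. Promoters were matched by symbol for 5 of 6 members.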

Additional observations from a re-analysis of the deposited data

How the results depend on the processing

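Over 17 alternatives, Ffar1 (-0.90 to -0.44), Ffar2 (0.62 to 1.14) and Ffar3 (-1.27 to -0.90) kept their sign on the log2 scale. The adjusted p of Ffar3 passed 0.05 in 1 alternative, DESeq2 (log2 fold change -1.12). Other members changed sign, and the causes were not tested. Gpr119 was at -0.19 with total-count scaling, -0.15 in limma-voom and -0.38 to 0.33 with 1 library left out. O3far1 was at 0.16 and Niacr1 at 0.010 when scaled to beta cell genes, and with 1 library left out they ran from -0.21 to 0.055 and from -0.51 to 0.063. The number of all genes called was 0 in edgeR, 1 with no filter, 8 in DESeq2 and 11 with the skipped genes kept as listed. At an unadjusted p under 0.05 it was 661, 1174 with beta cell scaling, and 225 (without WT replicate 2) to 1238 (without labelled KO replicate 3) with 1 library left out. The replicate numbers did not pair the samples (correlations of deviations 0.11, -0.14 and -0.34). With the replicate block, 454 genes had such a p, 0 were called, and Gpr119 was at -0.075, Ffar1 at -0.70, Ffar2 at 0.86 and Ffar3 at -1.11. The level of Ffar1 depended on its length, as given above, and the unadjusted p of Ffar1 was under 0.05 in 16 of 17 alternatives. With 3 libraries a group, the 95% intervals of Gpr119 (-0.76 to 0.82) and Niacr1 (-1.03 to 0.55) still hold a difference of the size of that of Ffar1. Members had 63 to 1750 counts per library.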
